A study of Rattus norvegicus with 32 samples.

Results

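The Wnt genes of the rat brain were followed across 4 regions and a binge of methamphetamine (METH). They were chosen by name from the gene counts: every gene whose name is Wnt, Fzd, Sfrp or Dkk with a number, and Lrp5, Lrp6, Axin1, Axin2, Ctnnb1, Wif1, Frzb and Dvl1 to Dvl3, kept where the total over 32 samples was at least 30 read pairs. Of 28914 gene names in the files, 46 fitted the names and 43 of these passed the minimum: 18 Wnt ligands, 9 Frizzled receptors, 2 co-receptors, 9 secreted antagonists and 5 intracellular components. Dkk1 had 0 read pairs in all, Fzd8 had 2 and Wnt8a had 4, and Axin1 was not analysed here. Adult male Sprague-Dawley rats had received 4 intraperitoneal injections of METH hydrochloride at 10 mg/kg, 2 h apart, or of saline (Sal), and tissue was taken a day after the last injection. RNA-seq was made from the nucleus accumbens (NAc), the dentate gyrus (DG), the cornu ammonis (CA) and the subventricular zone (SVZ), with 4 METH and 4 Sal samples for each region. The labels do not say which samples came from the same animal, so p-values measure the spread between these samples. Levels are given as FPKM, the read pairs per kilobase of exon, scaled to the size of the library.

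Wnt ligands are lipid-modified glycoproteins that act at short range. They bind Frizzled receptors, and with the co-receptors Lrp5 and Lrp6 they recruit Dishevelled (Dvl) proteins and Axin to the membrane. This stops the destruction of beta-catenin (Ctnnb1), which then works with TCF/LEF factors in the nucleus, and Axin2 is a widely used target gene of that branch. Secreted antagonists hold the ligands or the receptors: the Sfrp proteins, Frzb and Wif1 bind Wnt ligands, while Dkk1, Dkk2 and Dkk4 bind the co-receptors and the role of Dkk3 is less settled. In the adult brain the pathway is known for its part in neurogenesis in the DG and SVZ and in the upkeep of synapses.

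The sequences just upstream are shown for 4 members named in the results below: Axin2 as the target gene, Wnt9b and Wnt3 as neighbours that were high in the same libraries, and Frzb as an antagonist that differed between regions. No level or test below uses these sequences. They are the 250 bases before the annotated start, 5′ to 3′ on the strand of the gene, from RefSeq on the GRCr8 assembly, where 30 of the 43 members could be matched. Capitals mark CTTTGAT, a form of the TCF/LEF motif, in Axin2 and GGGCGG or its reverse complement, a GC box, in Wnt3, Wnt9b and Frzb.
Axin2 promoter, chr10:94398535-94398784, plus strand: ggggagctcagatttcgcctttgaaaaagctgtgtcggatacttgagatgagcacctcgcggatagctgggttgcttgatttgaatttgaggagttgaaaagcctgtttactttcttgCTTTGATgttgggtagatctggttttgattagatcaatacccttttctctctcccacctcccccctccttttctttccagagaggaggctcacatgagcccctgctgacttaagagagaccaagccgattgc
Wnt3 promoter, chr10:89179974-89180223, plus strand: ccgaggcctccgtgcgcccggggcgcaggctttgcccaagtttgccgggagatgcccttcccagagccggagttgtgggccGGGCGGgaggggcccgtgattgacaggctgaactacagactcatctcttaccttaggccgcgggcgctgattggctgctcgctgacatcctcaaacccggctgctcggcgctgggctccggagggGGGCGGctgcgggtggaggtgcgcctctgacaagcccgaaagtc
Wnt9b promoter, chr10:89157066-89157315, minus strand: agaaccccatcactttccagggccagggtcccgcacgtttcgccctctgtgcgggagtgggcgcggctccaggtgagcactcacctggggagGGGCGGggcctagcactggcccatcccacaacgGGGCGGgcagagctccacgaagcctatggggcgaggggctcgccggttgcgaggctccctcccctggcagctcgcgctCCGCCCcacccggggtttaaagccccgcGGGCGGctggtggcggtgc
Frzb promoter, chr3:85772097-85772346, minus strand: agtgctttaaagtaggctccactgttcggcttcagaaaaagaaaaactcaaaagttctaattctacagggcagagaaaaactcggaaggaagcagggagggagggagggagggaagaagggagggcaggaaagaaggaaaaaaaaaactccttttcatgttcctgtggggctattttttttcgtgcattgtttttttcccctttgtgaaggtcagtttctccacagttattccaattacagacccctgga
Axin2 held the TCF/LEF letters once, starting 132 bases before the start. Searched on both strands, these letters stood in 3.15% of 33469 such windows over the whole annotation, and in 1 of the 30 member windows. The GC box stood in 30.5% of all windows and in 18 of the 30 member windows, with 2 matches in Wnt3, 4 in Wnt9b and 0 in Frzb. GC content was 72.4% in the Wnt9b window, 68.4% in that of Wnt3, 47.6% in that of Axin2 and 43.6% in that of Frzb. A match of letters is a description and not a site.

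Library depth ran from 11094002 to 21869773 counted read pairs, with a median of 14533166.5, so that 1 read pair was worth 0.0442 to 0.0934 in counts scaled to library size (CPM). Marker genes of other tissue set several libraries apart. The sum of 5 thalamic markers was 1769 CPM in SVZ Sal 1, 1512 in SVZ METH 2 and 1053 in SVZ METH 4 against 60.8 to 483 in the other 29 libraries. The sum of 6 choroid plexus markers was 2056 to 7975 CPM in DG Sal 4, DG METH 3, CA Sal 2 and SVZ METH 3 against 1.53 to 383 in the other 28. Striatal markers summed to 1350 CPM in DG Sal 3, where other hippocampal libraries had 71.3 to 364. They summed to 106 CPM in NAc METH 3, where other NAc libraries had 1110 to 6441. In the SVZ striatal markers summed to 2368, 4368 and 2709 CPM in Sal 2 to 4 and to 1146 and 2086 in METH 1 and 3. In the SVZ libraries high in thalamic markers they summed to 199 CPM in Sal 1, 138 in METH 2 and 486 in METH 4. C1ql2, a marker of dentate granule neurons, did not separate the DG, at 1.18 to 102 CPM, from the CA, at 7.25 to 101. The sum of 5 CA pyramidal markers did not separate them either. It was 331 to 635 CPM in DG Sal, 557 to 675 in CA Sal and 568 to 704 in CA METH. In DG METH it was 260 to 1343, with METH 2 at 1343 and METH 4 at 1175. NAc libraries had 179 to 594 in Sal and 105 to 981 in METH. The part of either cell type in the DG values was not tested. Parts of the names in the file headers were taken here as sequencing runs. The headers do not state that they are, and the study's methods name 2 batches. CA Sal 1 and 2 carried the word merged in place of such a name. By these names all SVZ libraries stood apart from those of the other regions, so run and SVZ cannot be told apart. In the DG, Sal 3 and METH 1 and 2 shared a run. The other DG Sal libraries were in a run without DG METH, and DG METH 3 and 4 in a run without DG Sal. In the NAc, Sal 3 and 4 shared a run with METH 1 and 2. NAc Sal 1 and 2 were in a run without NAc METH, and NAc METH 3 and 4 in a run without NAc Sal. The library numbers 14 and 15 in the file headers name Sal samples in the NAc and CA but METH samples 1 and 2 in the DG, and numbers 20 and 21 name METH samples in the NAc and CA but Sal samples 1 and 2 in the DG. In the SVZ, METH samples 1 and 2 share one header number and so do METH samples 3 and 4. Values without the libraries set apart by markers, and without DG samples 1 and 2, are given beside the main calls that they change. SVZ METH samples that share a header number were each counted as a replicate in the calls below. In tissue RNA, fewer cells of a type and less RNA per cell cannot be told apart.

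Most members were low, and Ctnnb1 and a few others were high. The median over the 32 libraries was at least 1 FPKM for 30 of 43 members and at least 10 FPKM for 6. Ctnnb1 stood highest at a median of 127 FPKM, followed by the receptor Fzd3 at 30.5, Dkk3 at 21.1, Dvl1 at 20.9, Dvl3 at 20.3 and the co-receptor Lrp6 at 14.1. Ligands were lower: 9 of 18 reached a median of 1 FPKM, and the highest were Wnt7a at 8.20 FPKM and Wnt7b at 7.81. Of the receptors 8 of 9 reached 1 FPKM, Fzd6 falling short at 0.901, and of the antagonists 6 of 9 did so. Wnt3a had 0 read pairs in 23 libraries, Wnt6 in 6 and Sfrp5 in 3, and a library without a read pair still allows up to 3 by counting error alone.

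The intracellular components and the co-receptor Lrp6 varied less across libraries than most genes did. Dvl1 had a coefficient of variation (CV) of 9.75% over the 32 libraries, Lrp6 11.5%, Ctnnb1 12.9%, Dvl2 14.4%, Dvl3 15.7% and Axin2 16.4%. The median was 21.3% for the 13770 genes compared, those with a median level of at least 1 FPKM. The other co-receptor, Lrp5, was near that median CV at 20.7%. The antagonist Dkk4 at 15.8% and the receptor Fzd3 at 16.5% were also below it, so a low spread was not particular to the intracellular components and Lrp6. Ctnnb1 ran from 97.6 FPKM in DG Sal 2 to 177 in SVZ Sal 1. Axin2, the target gene, ran from 6.36 FPKM in DG METH 2 to 12.2 in SVZ Sal 4. At the other end, Wnt3a had a CV of 274%, Wnt9b 261%, Wnt3 157%, Wnt6 148%, Fzd6 122%, Wnt2 111%, Frzb 108% and Wnt4 102%. The 8 widest spreads were those of 6 ligands, the receptor Fzd6 and the antagonist Frzb.

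**Figure D1:**
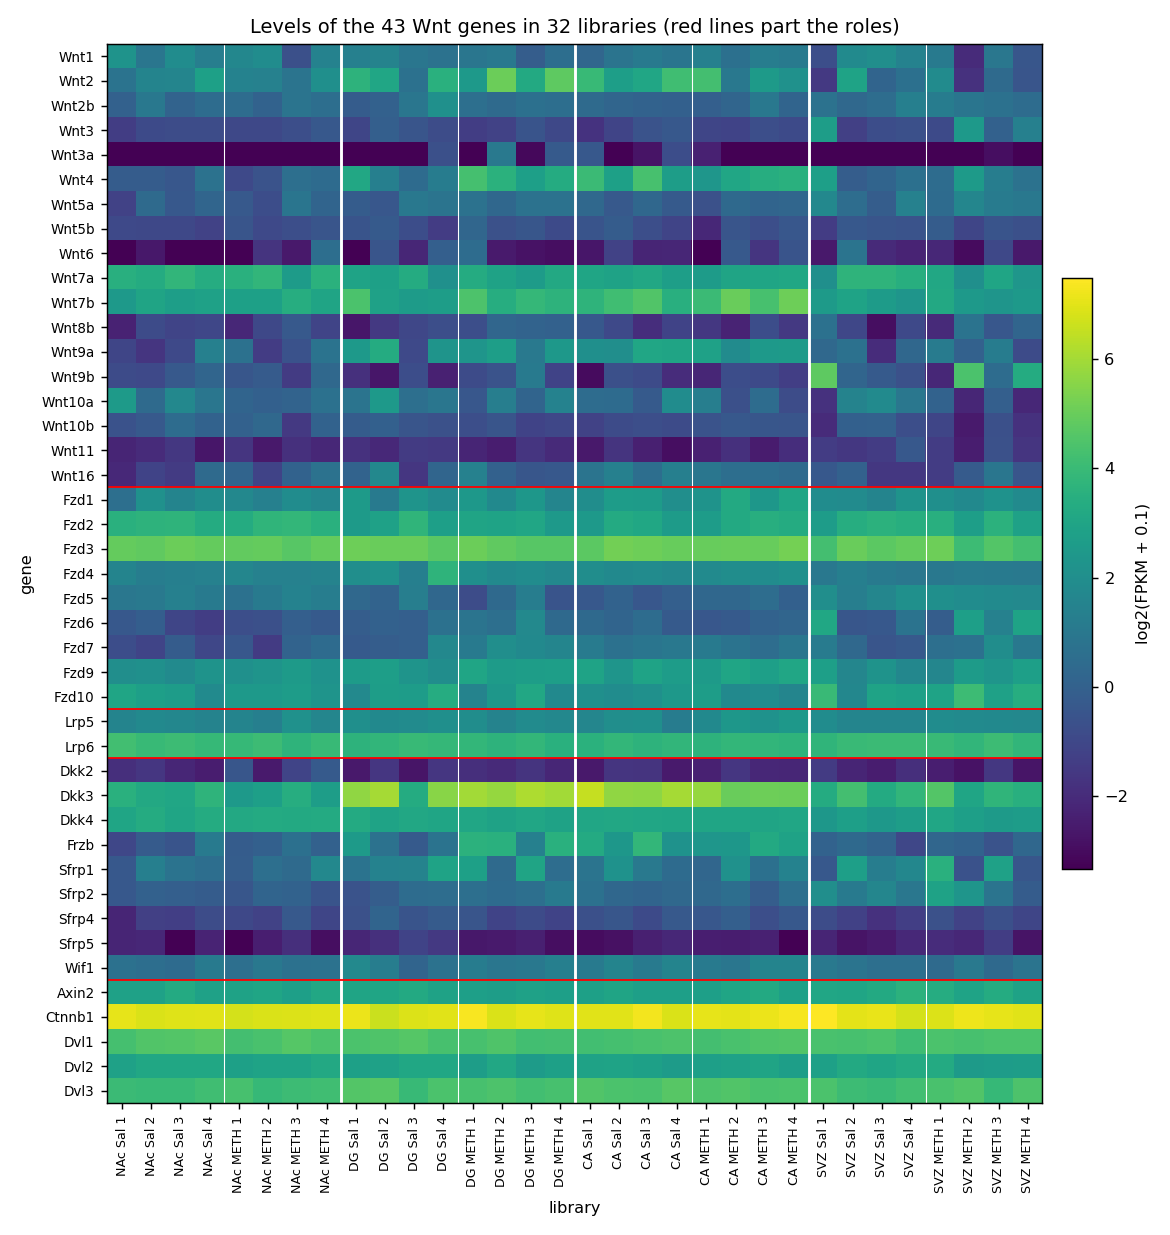
Levels of the 43 members as log2(FPKM + 0.1), genes in rows by role and the 32 libraries in columns by region and treatment. Ctnnb1 is high in every column, while Wnt9b, Wnt3 and Fzd6 stand out in SVZ Sal 1, SVZ METH 2 and SVZ METH 4.

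Which members mark a region was asked first. A test for any difference among the 4 regions over all samples called 18 of the 42 members tested, at an adjusted p under 0.01 (edgeR, quasi-likelihood F, Benjamini-Hochberg), where 28.8% of the 16122 genes tested were called. The called members were 8 of 18 ligands (Wnt7b, Wnt4, Wnt9b, Wnt9a, Wnt3, Wnt2, Wnt5a and Wnt11), 5 of 9 receptors (Fzd5, Fzd6, Fzd4, Fzd7 and Fzd10), the co-receptor Lrp6 and 4 of 8 antagonists (Dkk3, Frzb, Sfrp2 and Dkk4). None of the 5 intracellular components was called, with Dvl3 at an adjusted p of 0.0118 and Axin2 at 0.0161 by edgeR, and 2 of the 5 had an unadjusted p under 0.05, as 55.7% of all genes did. Within the 16 METH samples the same test called 10 members of 40, where 10.7% of all genes were called, and within the 16 Sal samples it called 0 of 39, where 0% of all genes were called and 19 members had an unadjusted p under 0.05, as 26.7% of genes did.

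Each region was then set against the mean of the other 3, calling genes at an adjusted p under 0.01 and a difference of over 2-fold. In Sal samples 3 members were called in the CA, where 0.264% of genes were called, 2 in the SVZ, where 0.0645% were, and 0 in the NAc and the DG, where 0% were. The 5 calls had adjusted p-values between 0.0074 and 0.00967 by edgeR and so lay just inside the threshold. Leaving out a single library took their number to 0 for NAc Sal 1, 2 or 3, DG Sal 2, CA Sal 1, 2 or 3 and SVZ Sal 2 or 3, to 1 for DG Sal 4, CA Sal 4 or SVZ Sal 4, to 2 for NAc Sal 4 and to 9 for DG Sal 3. In METH samples 3 members were called in the NAc, where 1.17% of genes were called, 3 in the DG (1.61%), 2 in the CA (0.359%) and 8 in the SVZ (3.51%). Of these 16 calls, 7 were left without SVZ METH 2 and 8 without SVZ METH 4.

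Dkk3, the divergent member of the Dickkopf family, gave the highest test value of the members and was high in both hippocampal regions. In Sal samples 1 to 4 it stood at 11.5, 9.02, 8.38 and 12.8 FPKM in the NAc, 50.5, 65.0, 9.72 and 46.8 in the DG, 90.6, 50.5, 49.9 and 65.2 in the CA and 9.78, 18.7, 9.64 and 13.6 in the SVZ. In METH samples it stood at 5.59, 6.67, 10.6 and 6.26 FPKM in the NAc, 63.0, 54.8, 70.4 and 61.9 in the DG, 54.7, 32.1, 33.7 and 33.3 in the CA and 23.5, 8.11, 13.3 and 11.0 in the SVZ. Apart from DG Sal 3, the library with striatal markers, every hippocampal library lay above every NAc and SVZ library. The difference among regions had an F of 44.0 and an adjusted p of 5.00e-07 by edgeR, and an F of 86.7 without DG Sal 3 and NAc METH 3. In Sal samples Dkk3 was higher in the CA than in the mean of the other regions by 1.81 on the log2 scale (SE 0.308, adjusted p 0.00967 by edgeR). In METH samples it was higher in the DG by 1.98 (SE 0.216) and lower in the NAc, at -2.13 (SE 0.271). Both METH calls of Dkk3 held without any single library and without DG samples 1 and 2 of both treatments, where the DG value was 2.07. Both were lost against the 12 other METH samples pooled, at 1.66 in the DG (adjusted p 0.0976 by edgeR) and -2.37 in the NAc (0.0486). The 4 DG METH libraries lay above the other 12 METH libraries, though by little over CA METH 1, and 1.51% of genes had DG METH libraries apart from the rest in this way.

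Frzb, an antagonist of the Sfrp family also known as Sfrp3, followed the hippocampus as well but varied within it. In Sal samples 1 to 4 it stood at 0.394, 0.762, 0.604 and 2.01 FPKM in the NAc, 5.85, 1.56, 0.738 and 1.65 in the DG, 9.53, 5.21, 14.2 and 4.49 in the CA and 0.964, 1.20, 0.990 and 0.387 in the SVZ. In METH samples it stood at 0.785, 0.894, 1.49 and 0.927 FPKM in the NAc, 12.0, 11.5, 2.49 and 11.3 in the DG, 5.02, 5.11, 9.31 and 7.38 in the CA and 1.07, 0.942, 0.582 and 1.10 in the SVZ. All 8 CA libraries lay above all NAc and SVZ libraries, while 3 of 4 DG Sal libraries lay within their range. Among regions F was 30.7 with an adjusted p of 1.88e-06 by edgeR. Frzb was higher in the CA by 2.69 on the log2 scale (SE 0.449) in Sal samples, and in METH samples higher in the DG by 2.31 (SE 0.292) and in the CA by 1.66 (SE 0.298) and lower in the NAc at -1.88 (SE 0.372) and in the SVZ at -2.09 (SE 0.370). Without DG samples 1 and 2 of both treatments the METH values of Frzb were 1.88 in the DG (adjusted p 0.0231 by edgeR), 1.81 for the CA (0.0143) and -1.74 for the NAc (0.0238), none called, and -1.95 in the SVZ, still called. Without the libraries high in thalamic markers, which left SVZ METH 1 and 3, the SVZ value was -2.25 (adjusted p 0.0244 by edgeR), not called. Of 16 omissions of a single METH library, the DG call held in 16 and the SVZ call in 15, but the CA call in 4 and the NAc call in 3. Set against the 12 other METH samples pooled, the CA value was 0.82 (adjusted p 0.6 by edgeR) and the DG value 1.70 (0.194). There the NAc value was -2.42 (adjusted p 0.142 by edgeR) and the SVZ value -2.585 (0.0309), so Frzb was called in no region.

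Wnt4, a ligand, showed the same pattern. It stood at 0.794, 0.772, 0.672 and 1.59 FPKM in NAc Sal, 8.65, 2.40, 1.26 and 2.24 in DG Sal, 16.4, 6.87, 20.1 and 6.37 in CA Sal and 6.67, 0.795, 1.01 and 1.5 in SVZ Sal. With METH it stood at 0.417, 0.579, 1.45 and 1.28 FPKM in the NAc, 19.2, 11.9, 6.72 and 10.0 in the DG, 4.93, 8.36, 10.5 and 11.6 in the CA and 1.30, 5.79, 2.27 and 1.59 in the SVZ. The high SVZ values belong to SVZ Sal 1 and SVZ METH 2, which also carried the most thalamic marker RNA, and F among regions was 19.6 with all libraries and 33.4 without the 3 libraries high in those markers. In METH samples Wnt4 was higher in the DG by 2.06 on the log2 scale (SE 0.360) and lower in the NAc at -2.79 (SE 0.480), and it was called in no region of the Sal samples, with an adjusted p of 0.0151 in the CA by edgeR. Without DG samples 1 and 2 of both treatments Wnt4 was called in neither, at 1.56 for the DG (SE 0.456, adjusted p 0.116 by edgeR) and -2.62 for the NAc (SE 0.478, adjusted p 0.0126 by edgeR). The DG call was also lost without DG METH 1, at 1.74, or DG METH 4, and the NAc call without NAc METH 1, 2 or 4. Against the 12 other METH samples pooled Wnt4 had 1.53 in the DG (adjusted p 0.243 by edgeR) and -3.03 in the NAc (0.0453), neither called.

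Within the hippocampus Frzb and Wnt4 were high where C1ql2 and Prox1, 2 of the 5 granule neuron markers listed, were high, under either region label. Over the 16 DG and CA libraries Spearman's rho with C1ql2 was 0.921 for Frzb and 0.891 for Wnt4, and the next member, Wnt7a, had 0.559. With Prox1, the transcription factor that marks granule neurons, rho was 0.900 for Frzb and 0.862 for Wnt4. These are descriptions across libraries that share their depth and tissue, and the members were named after the values were seen. C1ql2 stood at 50.7, 1.18, 7.07 and 12.3 CPM in DG Sal, 102, 77.3, 3.77 and 61.1 in DG METH, 82.4, 7.25, 101 and 27.4 in CA Sal and 10.5, 33.0, 39.0 and 34.0 in CA METH. DG METH 3, the lowest of its group for Frzb and Wnt4, was also its lowest for C1ql2. The other 3 markers ordered the DG libraries differently. Calb1 and Pdzd2 were highest in DG Sal 3, at 135 and 159 CPM, where Frzb was lowest of the DG, and Dsp was highest in DG METH 3 at 10.2 CPM. Dkk3 did not follow C1ql2, with a rho of 0.068.

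**Figure D2:**
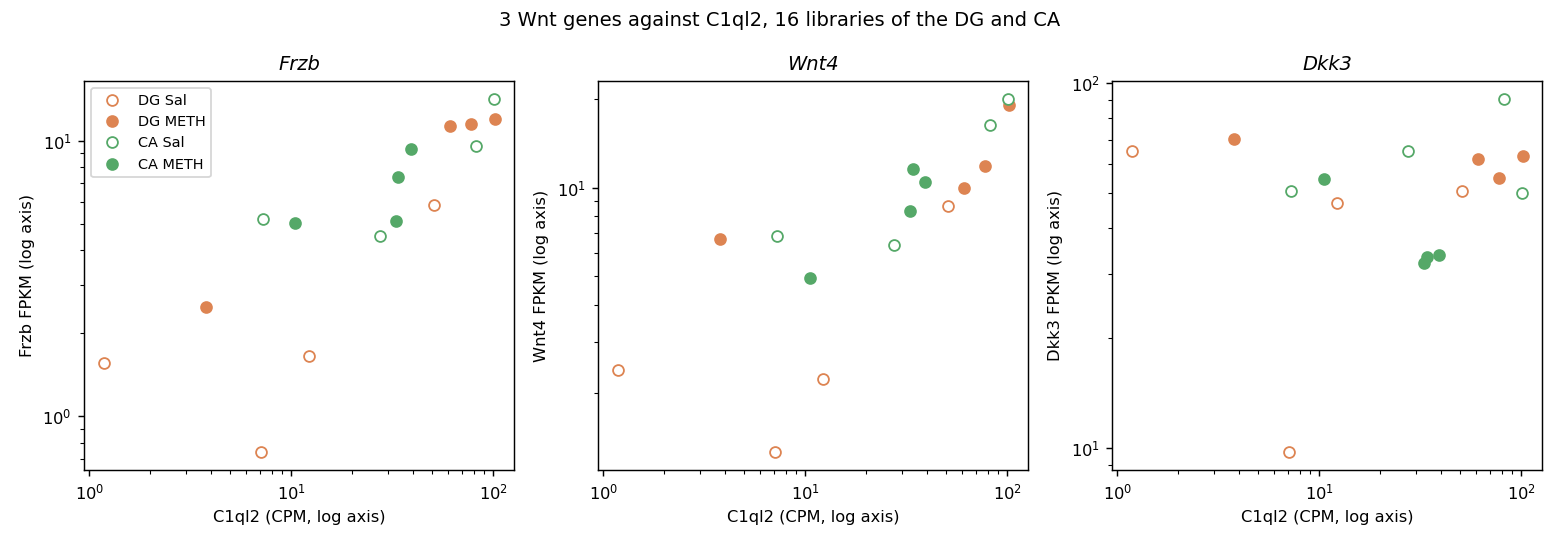
Frzb, Wnt4 and Dkk3 (FPKM, log axis) against C1ql2 (CPM, log axis) in the 16 DG and CA libraries, open circles Sal and filled circles METH. Frzb and Wnt4 are higher where C1ql2 is higher in DG and CA points alike, with rho of 0.921 and 0.891, and Dkk3 has a rho of 0.068.

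Wnt7b, a ligand of the canonical branch known for its part in dendrite growth, was highest in the CA. In METH samples it stood at 6.91, 6.83, 10.4 and 7.81 FPKM in the NAc, 21.8, 10.6, 14.3 and 12.5 in the DG, 16.1, 31.5, 19.9 and 33.6 in the CA and 8.97, 5.51, 4.87 and 5.43 in the SVZ. In Sal samples 1 to 4 it stood at 5.65, 7.81, 6.51 and 7.04 FPKM in the NAc, 21.5, 7.06, 5.99 and 6.24 in the DG, 12.8, 17.9, 23.4 and 11.1 in the CA and 5.85, 7.65, 5.92 and 4.85 in the SVZ. All CA libraries lay above all NAc and SVZ libraries, and DG Sal 1 stood alone in its group. Among regions F was 21.4 (adjusted p 1.28e-05 by edgeR). In METH samples Wnt7b was higher in the CA by 1.44 on the log2 scale (SE 0.210) and lower in the SVZ at -1.19 (SE 0.242). The CA call was lost without CA METH 2, at 1.33, or CA METH 4, at 1.28. The SVZ call was lost without SVZ METH 2, 3 or 4. Without the libraries high in thalamic markers, which left SVZ METH 1 and 3, Wnt7b had -1.02 there (adjusted p 0.0683 by edgeR). Against the 12 other METH samples pooled it had 1.35 in the CA (adjusted p 0.142 by edgeR) and -1.33 in the SVZ (0.0354), neither called. Its relative Wnt7a was more even, with a mean of 11.0 ± 2.41 FPKM in the NAc (SD, n = 8), 7.55 ± 1.96 in the DG, 7.59 ± 0.944 in the CA and 8.30 ± 3.69 in the SVZ.

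Other ligands were also of hippocampal weight. Wnt9a had a mean of 4.89 ± 2.83 FPKM in the DG and 5.73 ± 1.79 in the CA against 0.941 ± 0.841 in the NAc and 1.21 ± 0.725 in the SVZ (SD, n = 8), and F was 13.2. Wnt2 ranged from 1.52 to 33.0 FPKM in the DG and from 1.87 to 19.1 in the CA, against 1.62 to 6.85 in the NAc and 0.194 to 7.64 in the SVZ, and F was 8.86. The ranges of the 4 regions overlapped for Wnt2. Wnt5a, a ligand best known for signalling without beta-catenin, was highest in the SVZ with a mean of 2.03 ± 0.848 FPKM against 0.908 ± 0.451 in the NAc. Its F of 6.84 fell to 3.32 without the libraries high in thalamic markers (adjusted p 0.0752 by edgeR), and Wnt5a was then not called. Wnt11 stayed under 0.691 FPKM in all but SVZ Sal 4, which had that value. Wnt3a had read pairs mainly in 5 hippocampal libraries, with 72 in DG METH 2, 30 in DG METH 4, 31 in CA Sal 1, 17 in DG Sal 4 and 15 in CA Sal 4, and 0 in every NAc library.

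Fzd5, a receptor, ran the opposite way, high in the SVZ and low in the CA. In Sal samples 1 to 4 it stood at 1.86, 1.94, 2.47 and 2.08 FPKM in the NAc, 1.16, 0.969, 2.38 and 1.12 in the DG, 0.674, 0.942, 0.660 and 0.860 in the CA and 3.94, 2.33, 3.01 and 4.15 in the SVZ. In METH samples it stood at 1.52, 2.04, 2.62 and 2.26 FPKM in the NAc, 0.461, 1.18, 2.29 and 0.588 in the DG, 1.12, 1.11, 1.36 and 0.905 in the CA and 4.08, 3.71, 3.45 and 3.30 in the SVZ. The 4 SVZ METH libraries lay above the other 12 METH libraries, and the 4 CA Sal libraries below the other 12 Sal libraries, as 3.07% and 1.13% of genes did in those comparisons in either direction. F was 25.7 (adjusted p 4.78e-06 by edgeR). In Sal samples Fzd5 was higher in the SVZ by 1.37 on the log2 scale (SE 0.211) and lower in the CA at -1.49 (SE 0.254), and in METH samples it was higher in the SVZ by 1.41 (SE 0.282). Without the libraries high in thalamic markers Fzd5 had 1.29 in the SVZ of Sal samples (adjusted p 0.0148 by edgeR) and 1.47 in that of METH samples (adjusted p 0.0309 by edgeR), neither called. The METH value then rests on SVZ METH 1 and 3. DG Sal 3 and DG METH 3 stood above the other DG libraries for Fzd5, and the first of them held the striatal markers.

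Sfrp2, a Wnt-binding antagonist, was higher in the SVZ. It stood at 3.88, 2.02, 2.96 and 1.83 FPKM in SVZ Sal and at 7.34, 4.89, 1.66 and 0.772 in SVZ METH. Elsewhere it ran from 0.691 to 0.918 FPKM in NAc Sal, 0.598 to 1.01 in NAc METH, 0.584 to 1.37 in DG Sal, 1.27 to 2.03 in DG METH, 1.03 to 1.51 in CA Sal and 0.805 to 1.45 in CA METH. The 4 SVZ Sal libraries lay above the other 12 Sal libraries, as 1.36% of genes had SVZ Sal libraries apart, while SVZ METH 3 and 4 lay within the range of the other METH libraries. Sfrp2 was higher in the SVZ by 1.44 on the log2 scale in Sal samples (SE 0.221) and by 1.71 in METH samples (SE 0.375). Without SVZ METH 2 and 4, the METH libraries high in thalamic markers, Sfrp2 was the only member of those tested still called in the SVZ of METH samples. The value was 2.01 (SE 0.345, adjusted p 0.00614 by edgeR) and rests on SVZ METH 1 and 3. Without SVZ METH 1 alone the value was 1.11 (adjusted p 0.0319 by edgeR) and Sfrp2 was not called, and the call held in 7 of 16 omissions of a single METH library. In Sal samples Sfrp2 had 1.21 without SVZ Sal 1, the Sal library high in thalamic markers (adjusted p 0.0159 by edgeR), and was not called.

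Dkk4, an antagonist at the co-receptors, differed by little but evenly. Its mean was 9.11 ± 0.746 FPKM in the NAc, 8.11 ± 0.737 in the DG, 8.18 ± 0.317 in the CA and 6.30 ± 1.01 in the SVZ (SD, n = 8), and F was 14.5. Among Sal samples the SVZ libraries were the lowest, at 5.18 to 6.75 FPKM, and among METH samples the NAc libraries were the highest, at 9.15 to 9.56, as 1.18% of genes had NAc METH libraries apart. Fzd4 was lower in the SVZ, with a mean of 2.03 ± 0.189 FPKM against 3.62 ± 0.304 in the CA, and reached 12.9 FPKM in DG Sal 4, a library with choroid plexus markers that also had the highest Wnt2b at 4.13 FPKM. Without the 4 libraries of high choroid plexus markers F for Fzd4 was 28.9, against 13.0 with them. Fzd7 was lower in the NAc, at 0.652 ± 0.347 FPKM, than in the DG at 2.23 ± 1.29. Lrp6 differed by little, from 13.1 ± 0.789 FPKM in the CA to 15.7 ± 1.64 in the NAc, with an F of 8.02.

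**Figure D3:**
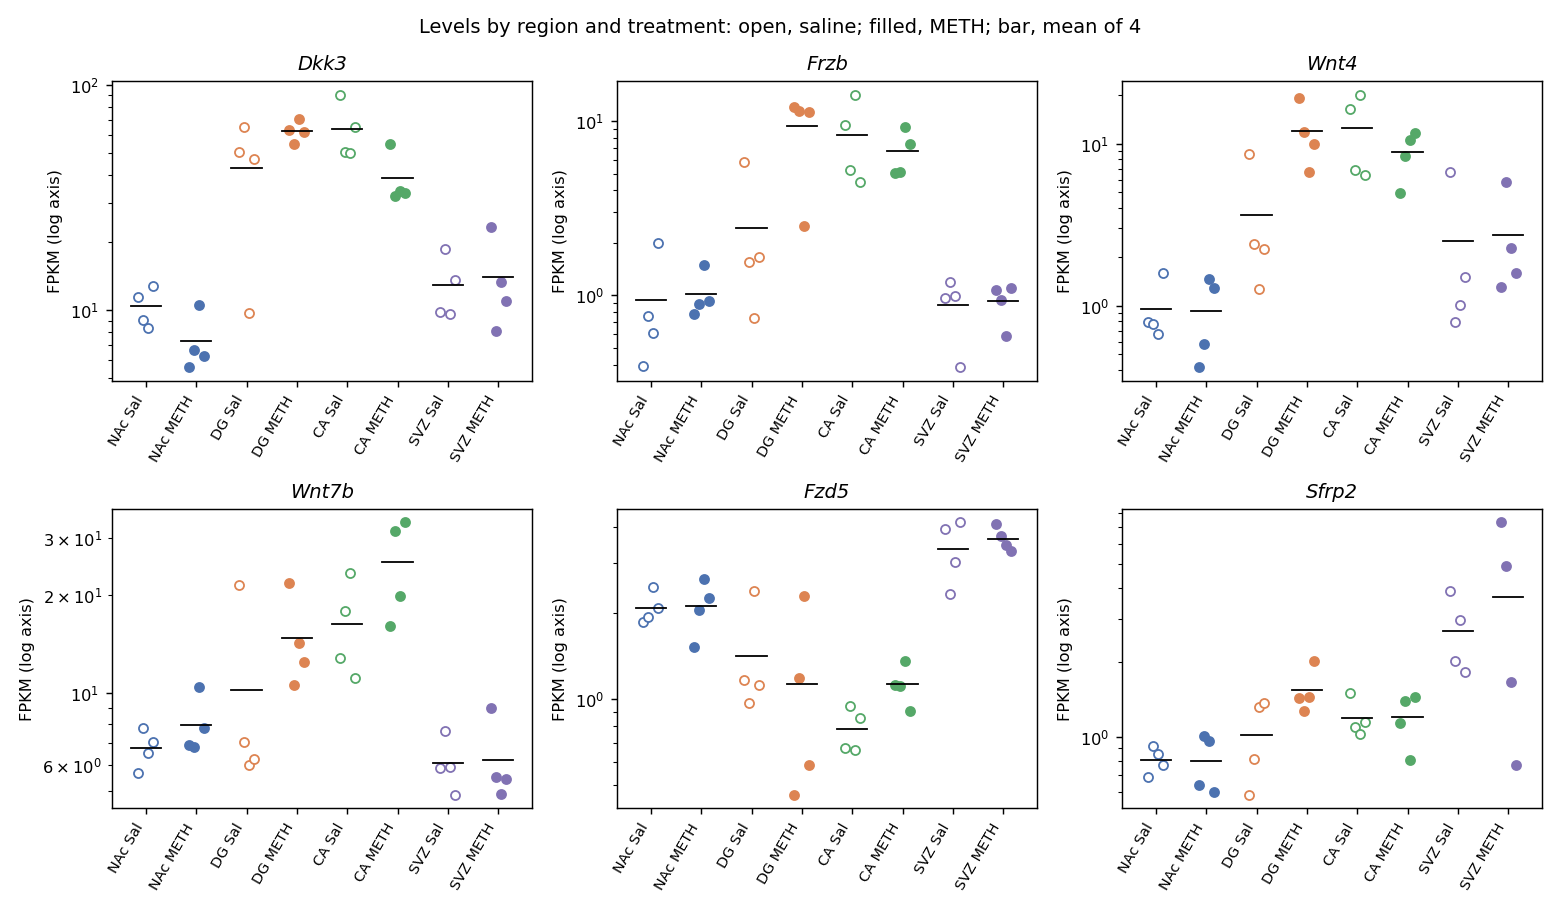
Levels of 6 members called among regions (FPKM, log axis) in the 8 groups, open circles Sal, filled circles METH, bars the mean of 4 samples. Dkk3 is high in the DG and CA, Frzb and Wnt4 in the CA and in most DG METH samples, Wnt7b in the CA, and Fzd5 and Sfrp2 in the SVZ, with DG Sal 3 low for Dkk3 at 9.72 FPKM.

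A further group of SVZ members rested on 3 libraries. Wnt9b stood at 27.4, 1.06, 0.725 and 0.538 FPKM in SVZ Sal and 0.129, 21.4, 1.30 and 10.0 in SVZ METH, and nowhere else exceeded 2.09. Wnt3 stood at 6.38, 0.317, 0.492 and 0.529 FPKM in SVZ Sal and 0.442, 5.52, 0.930 and 2.48 in SVZ METH. Fzd6, a receptor of the planar polarity branch, stood at 8.43, 0.635, 0.680 and 1.62 FPKM in SVZ Sal and 0.820, 6.71, 2.54 and 7.61 in SVZ METH. SVZ Sal 1, SVZ METH 2 and SVZ METH 4 were the highest of all 32 libraries for each of these, and for Fzd10 at 10.4 to 16.6 FPKM against at most 10.3. They are the libraries whose thalamic markers summed to over 1000 CPM, and oligodendrocyte markers there summed to 17798, 24604 and 26082 CPM. Wnt9b and Wnt3 are neighbours on chromosome 10 of rn6, at 91785893-91807937 on the minus strand and 91830654-91874793 on the plus strand, with 22716 bases between them, and the counts did not use strand.

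With all libraries Wnt9b was higher in the SVZ of METH samples by 3.80 on the log2 scale (SE 0.719), Wnt3 by 2.41 (SE 0.408), Fzd6 by 2.13 (SE 0.382) and Fzd10 by 1.13 (SE 0.271), all called. Without SVZ METH 2 and 4, which left SVZ METH 1 and 3 for the SVZ, none was called. The values were then 0.33 (SE 0.744) for Wnt9b, 0.67 (SE 0.316) for Wnt3, 0.76 (SE 0.383) for Fzd6 and 0.65 (SE 0.331) for Fzd10. Without all 3 libraries the test among the 4 regions gave an F of 2.18 for Wnt9b and 0.71 for Wnt3, neither called. It gave 6.81 for Fzd6, which was still called. For Fzd10 it gave 2.33 (adjusted p 0.162 by edgeR), not called. Of the nuclear partners of beta-catenin, Tcf7l2 stood at 74.7, 74.0 and 42.1 FPKM and Lef1 at 42.9, 44.5 and 25.4 in the 3 libraries, against at most 26.4 and 6.44 in the other 29. The part of other tissue in these values was not tested.

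The same 3 libraries were the lowest of the SVZ for other members. Wnt1 was at 0.153 to 0.649 FPKM there against 1.84 to 3.98 in the other 5 SVZ libraries, Wnt7a at 3.99 to 5.04 against 7.99 to 12.9, and Wnt10a at 0.126 to 0.191 against 0.862 to 3.48. The antagonist Sfrp1 was at 0.556 to 0.678 FPKM against 2.25 to 11.4. Among receptors Fzd3 was at 16.8 to 18.9 FPKM against 23.6 to 33.5. These are descriptions of libraries chosen by their markers, with no test. The same libraries had the lowest striatal marker sums of the SVZ, at 138 to 486 CPM against 1146 to 4368. The part of striatal tissue in these values was not tested.

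**Figure D4:**
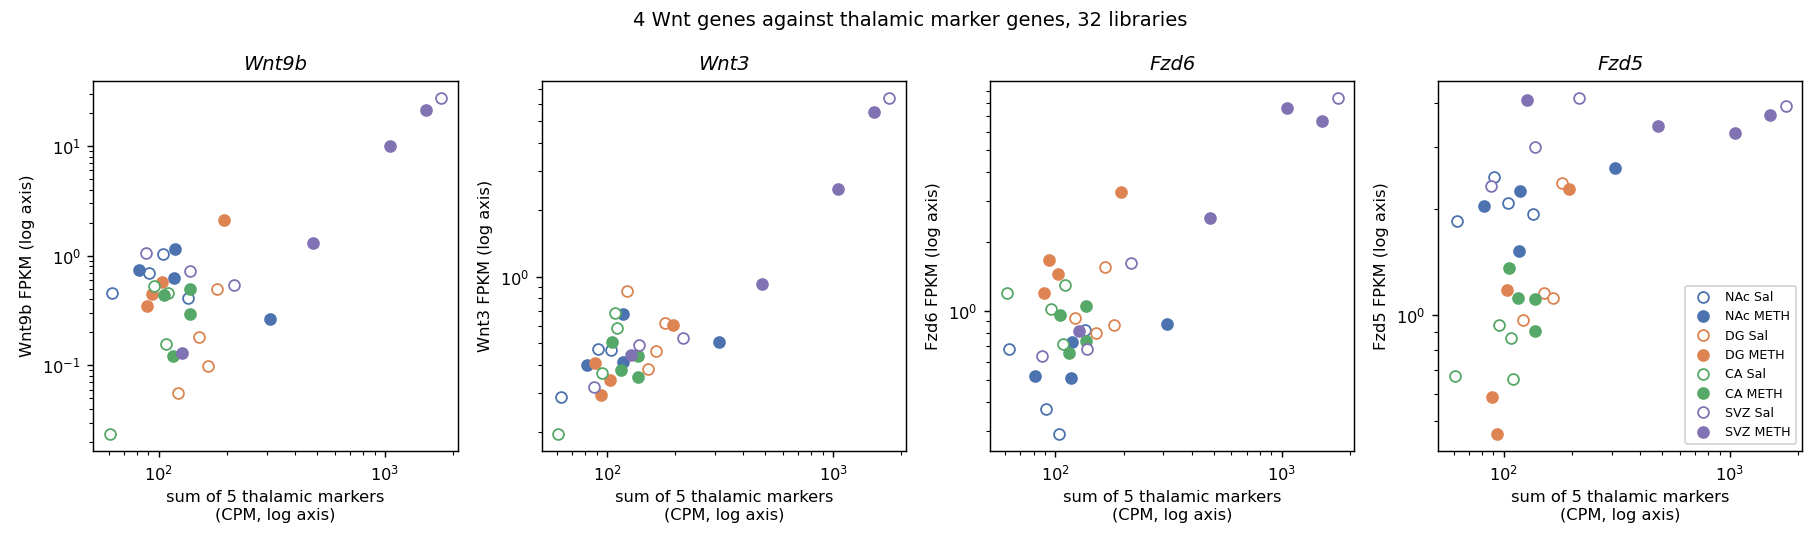
Wnt9b, Wnt3, Fzd6 and Fzd5 (FPKM, log axis) against the sum of 5 thalamic markers (CPM, log axis) in the 32 libraries, open circles Sal and filled circles METH. The 3 SVZ libraries over 1000 CPM are the highest for Wnt9b, Wnt3 and Fzd6, while Fzd5 is about as high in the other SVZ libraries.

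METH was then compared with Sal in each region. Called here means an adjusted p under 0.01 and a difference of over 1.5-fold, and no member and no other gene was called in any region by edgeR, so 0% of genes were called and the counts below are of unadjusted p under 0.05. By that measure 2 of 37 members tested in the NAc, 7 of 38 in the DG, 4 of 37 in the CA and 0 of 39 in the SVZ passed, beside 3.39%, 12.8%, 7.16% and 2.58% of all genes tested. Of the NAc members 1 was higher and 1 lower with METH, where 2.42% and 0.968% of genes were. Of the DG members 5 were higher and 2 lower, where 6.35% and 6.42% of genes were. Of the CA members 3 were higher and 1 lower, where 4.37% and 2.79% of genes were, and in the SVZ 1.19% of genes were higher and 1.39% lower. Adjusted p-values for these members lay between 0.281 and 0.999 by edgeR. The median log2 fold change of members was 0.08 in the NAc, -0.08 in the DG, 0.03 in the CA and 0.08 in the SVZ, beside 0.03, -0.01, 0.005 and 0.02 over all genes tested.

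**Figure D5:**
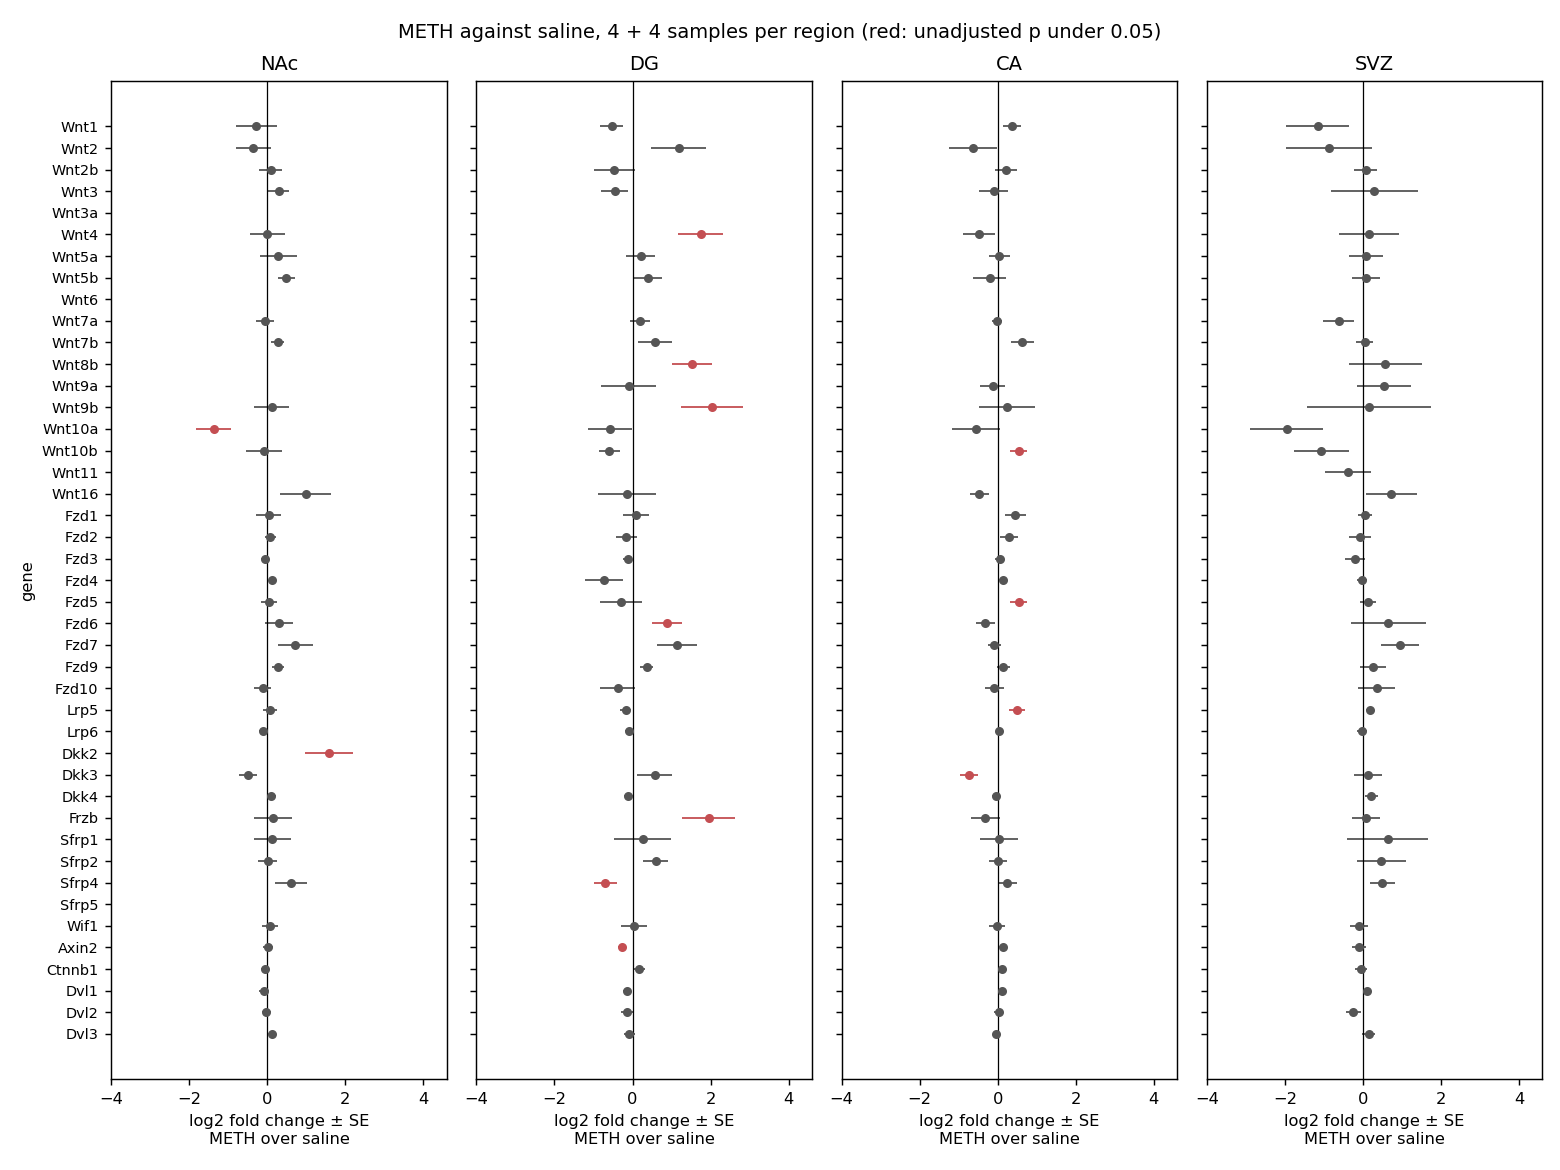
Log2 fold change of METH over Sal with its SE for each member tested, by region, from 4 and 4 samples. Red points have an unadjusted p under 0.05, which is 2 members in the NAc, 7 in the DG, 4 in the CA and 0 in the SVZ, and no point was called after adjustment.

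In the NAc the ligand Wnt10a stood at 5.73, 1.22, 3.18 and 1.79 FPKM in Sal and 1.02, 0.890, 0.967 and 1.54 in METH samples. METH libraries were lower but for an overlap with NAc Sal 2, with a log2 fold change of -1.38 (SE 0.454, unadjusted p 0.0148 and adjusted p 0.999 by edgeR). With run as a covariate the unadjusted p of Wnt10a was 0.104 by edgeR. Dkk2, a co-receptor antagonist, stood at 0.175, 0.222, 0.123 and 0.0819 FPKM in Sal and 0.635, 0.0717, 0.366 and 0.737 in METH samples, so that NAc METH 2 lay below all Sal libraries, and its log2 fold change was 1.59 (SE 0.611). With run as a covariate Dkk2 had 1.765 (unadjusted p 0.119 by edgeR). It had 3 to 39 read pairs in the NAc libraries and did not pass the low-count filter for METH against Sal in the DG, CA or SVZ. A gene this low can pass through the group where it is high, so its p-value is a description. Wnt5b was the member whose groups did not overlap, at 0.337 to 0.419 FPKM in Sal and 0.426 to 0.622 in METH samples, as 2.30% of genes did. The count of 2 was 1 without NAc Sal 1, NAc METH 1 or NAc METH 4 and 4 without NAc METH 2.

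The DG held the most members with an unadjusted p under 0.05. Of ligands, Wnt4 had a log2 fold change of 1.74 (SE 0.584), Wnt8b of 1.52 (SE 0.523) and Wnt9b of 2.04 (SE 0.795). Of antagonists, Frzb had 1.95 (SE 0.679) and Sfrp4 -0.69 (SE 0.288). The receptor Fzd6 had 0.89 (SE 0.376) and Axin2 -0.26 (SE 0.105). The adjusted p was 0.281 for Wnt4, 0.289 for Wnt8b, 0.294 for Frzb and 0.357 for Axin2 by edgeR. Wnt8b stood at 0.0552, 0.249, 0.390 and 0.497 FPKM in Sal and 0.511, 1.09, 0.979 and 0.912 in METH samples, without overlap. It had 1 to 31 read pairs in the DG libraries and did not pass the low-count filter for METH against Sal in the NAc or CA. A gene this low can pass through the group where it is high, so its p-value and lack of overlap are descriptions. Axin2 stood at 7.74, 7.98, 9.30 and 7.42 FPKM in Sal and 6.73, 6.36, 7.07 and 6.64 in METH samples, also without overlap, and 6.80% of genes had groups that did not overlap here. Sfrp4 stood at 0.543, 1.01, 0.591 and 0.753 FPKM in Sal and 0.621, 0.346, 0.451 and 0.344 in METH samples.

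Over the DG and CA libraries rho with C1ql2 was 0.921 for Frzb and 0.891 for Wnt4. For the other members named in the DG it ran from -0.559 for Axin2 to 0.329 for Fzd6, and with Prox1 Axin2 had -0.668. The granule marker C1ql2 was at 50.7, 1.18, 7.07 and 12.3 CPM in DG Sal and 102, 77.3, 3.77 and 61.1 in DG METH, the order that Frzb took within each group apart from DG Sal 2 and 3. Wnt4 took that order in DG METH, but in DG Sal it was higher in DG Sal 2, the lowest for C1ql2, than in DG Sal 3 or 4. The part of granule neuron content in the Frzb, Wnt4 and Axin2 values was not tested. Without DG samples 1 and 2 of both treatments, whose header numbers are exchanged, 4 of 41 members had an unadjusted p under 0.05, where 6.72% of genes did, and the log2 fold change was 2.24 (SE 0.397) for Wnt4, 2.5 (SE 0.900) for Frzb, 1.08 (SE 0.434) for Wnt8b and -0.30 (SE 0.185) for Axin2. Without DG Sal 4 and DG METH 3, the DG libraries of high choroid plexus markers, Wnt9b came to 0.87 (SE 0.670) and Frzb to 2.14 (SE 0.663). The count of 7 was 4 without DG Sal 2 or DG METH 3.

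In the CA Dkk3 had a log2 fold change of -0.74 (SE 0.232, unadjusted p 0.0111 and adjusted p 0.669 by edgeR). With run as a covariate the unadjusted p of Dkk3 was 0.0638 by edgeR. Its Sal samples ran from 49.9 to 90.6 FPKM and its METH samples from 32.1 to 33.7 with CA METH 1 apart at 54.7, which alone made the groups overlap. Fzd5 had 0.53 (SE 0.218), with Sal samples at 0.660 to 0.942 FPKM and METH samples at 0.905 to 1.36. The ligand Wnt10b stood at 0.337, 0.454, 0.497 and 0.452 FPKM in Sal and 0.577, 0.680, 0.640 and 0.613 in METH samples, without overlap, as 4.44% of genes did, and had 0.53 (SE 0.221). The co-receptor Lrp5 had 0.50 (SE 0.212). Fzd5 and Wnt10b also had an unadjusted p above 0.05 by edgeR with run as a covariate. The count of 4 was 1 without CA Sal 1, CA METH 2 or CA METH 3 and 2 without CA Sal 4 or CA METH 4.

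In the SVZ no member had an unadjusted p under 0.05 and none had groups that did not overlap, where 1.69% of genes did. SVZ Sal 1 widened the spread of its group: without it 8 of 39 members passed that p, namely Lrp5, Wnt7a, Wnt4, Fzd6, Fzd7, Wnt10a, Wnt9b and Wnt3, and so did 16.4% of all genes. Without SVZ METH 1 the count was 1. Without all 3 libraries high in thalamic markers 6 of 41 passed, namely Wnt7a, Wnt1, Fzd7, Wnt10a, Sfrp4 and Sfrp1, and 6.73% of all genes did. No member was called in either case.

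Ctnnb1 and Axin2, effector and target of the canonical branch, were near level between treatments outside the DG. Ctnnb1 stood at 133, 117, 124 and 128 FPKM in NAc Sal and 109, 116, 121 and 124 in NAc METH, 144, 97.6, 118 and 126 in DG Sal and 163, 117, 136 and 124 in DG METH. It stood at 126, 127, 157 and 115 FPKM in CA Sal and 135, 129, 144 and 159 in CA METH, and at 177, 129, 138 and 110 in SVZ Sal and 121, 145, 134 and 128 in SVZ METH. Its log2 fold change in the NAc was -0.07 (SE 0.086). DG had 0.16 (SE 0.156) and CA had 0.11 (SE 0.113). In the SVZ it was -0.05 (SE 0.150), and the METH and Sal groups overlapped in each region. Axin2 stood at 7.09, 7.22, 9.53 and 7.12 FPKM in NAc Sal and 7.28, 7.93, 6.77 and 8.65 in NAc METH, 6.95, 7.86, 6.79 and 6.75 in CA Sal and 6.78, 7.92, 9.19 and 6.89 in CA METH. In the SVZ it stood at 8.22, 7.95, 9.43 and 12.2 FPKM in Sal and 10.2, 7.49, 9.75 and 7.36 in METH samples. Its log2 fold change in the NAc was 0.01 (SE 0.126), and its sign there turned with the normalization. For the CA it was 0.13 (SE 0.118) and for the SVZ -0.10 (SE 0.188).

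A difference shared by the regions was tested as the mean of the 4 within-region differences. No member was called, as 0% of genes were, and 4 of 42 had an unadjusted p under 0.05, beside 7.83% of the 16122 genes tested. Wnt10a had a mean log2 fold change of -1.13 (SE 0.365, adjusted p 0.516 by edgeR), with DG at -0.58 (SE 0.565), CA at -0.56 (SE 0.614) and SVZ at -1.95 (SE 0.938). Fzd7 had 0.68 (SE 0.230), Wnt7b 0.37 (SE 0.166) and Fzd9 0.26 (SE 0.114). Fzd7 stood at 0.492, 0.370, 0.771 and 0.385 FPKM in NAc Sal, 0.662, 0.269, 0.989 and 1.28 in NAc METH, 0.742, 0.804, 0.850 and 3.14 in DG Sal and 2.04, 3.90, 3.43 and 2.94 in DG METH. It stood at 2.12, 1.55, 1.75 and 1.88 FPKM in CA Sal, 2.07, 1.64, 1.36 and 1.79 in CA METH, 2.14, 1.16, 0.618 and 0.712 in SVZ Sal and 1.44, 1.55, 3.86 and 1.92 in SVZ METH. The highest Fzd7 values of DG Sal and of SVZ METH were in DG Sal 4 and SVZ METH 3, both with choroid plexus markers, and the part of that tissue was not tested.

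Wnt10a in the remaining groups stood at 1.66, 5.45, 1.43 and 1.76 FPKM in DG Sal, 0.654, 2.38, 1.03 and 2.67 in DG METH, 1.32, 1.27, 0.726 and 3.65 in CA Sal and 2.37, 0.519, 1.32 and 0.468 in CA METH. In the SVZ it stood at 0.191, 2.7, 3.48 and 1.83 FPKM in Sal and 0.954, 0.126, 0.862 and 0.132 in METH samples, with the libraries high in thalamic markers the lowest of both. Whether the METH difference itself differed among regions was tested next. No member was called, as 0% of genes were, and 2 of 42 had an unadjusted p under 0.05, beside 7.74% of genes: Frzb with an F of 3.63 (adjusted p 0.572 by edgeR) and Sfrp4 with an F of 3.19 (adjusted p 0.617 by edgeR). The log2 fold change of Frzb was 1.95 in the DG, while for the CA it was -0.32 (SE 0.371). The count of 4 in the shared test was 8 without SVZ Sal 1 and 2 without NAc METH 3, DG Sal 4, DG METH 1, CA METH 2, CA METH 4 or SVZ Sal 4. The count of 2 for differing effects was 7 without SVZ Sal 1, 0 without DG METH 2 or DG METH 4, 1 without NAc Sal 3, DG Sal 2 or SVZ METH 1, and 4 without DG Sal 1, CA METH 1, SVZ METH 2 or SVZ METH 3.

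Of 59 further genes of the pathway, among them secretion factors, R-spondins, destruction complex and TCF/LEF genes, 58 were in the files and 57 had at least 30 read pairs. With METH 2 of 52 had an unadjusted p under 0.05 in the NAc (1 higher and 1 lower), 16 of 54 in the DG (7 higher and 9 lower), 5 of 54 in the CA (4 higher and 1 lower) and 0 of 54 in the SVZ, beside 3.39%, 12.8%, 7.16% and 2.58% of all genes tested. Cxxc4, an inhibitor of Dishevelled, had the lowest p in the DG. It stood at 10.8, 11.8, 11.4 and 10.3 FPKM in DG Sal and 6.12, 5.86, 6.24 and 5.85 in DG METH, well apart. Its log2 fold change was -0.87 (SE 0.081, adjusted p 0.0465 by edgeR), which is not under 0.01. In this region Notum, a secreted enzyme that inactivates Wnt ligands, had -1.26 (SE 0.299, adjusted p 0.185 by edgeR) and Dact2 had -2.02 (SE 0.489), with DG Sal 2 at 48.2 FPKM against 10.5 to 14.2 in the other Sal libraries. Without DG samples 1 and 2 of both treatments Cxxc4 had -0.86 (SE 0.152).

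Among regions 22 of 55 of these genes were called, beside 28.8% of all genes tested. Rspo2, an R-spondin that raises the response to Wnt ligands, was led by the hippocampus, at 10.1, 3.47, 0.194 and 4.27 FPKM in DG Sal, 20.4, 12.8, 18.8 and 21.6 in DG METH, 27.1, 11.3, 14.2 and 8.59 in CA Sal and 9.09, 10.0, 12.0 and 12.1 in CA METH, against at most 2.28 in the NAc and SVZ. DG Sal 3, the lowest of the hippocampal libraries, again held the striatal markers. Rspo2 had an F of 29.8 (adjusted p 2.18e-06 by edgeR) and was higher in the CA of Sal samples by 3.91 on the log2 scale (SE 0.631). Prickle2 and Celsr2, of the planar polarity branch, had an F of 26.3 and of 22.9.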

How the data were processed

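RNA was taken from NAc, DG, CA and SVZ of METH and Sal rats (4 samples a group, 32 in all). Per the labels and the study's methods, libraries of rRNA-depleted total RNA were trimmed with cutadapt 2.7, aligned to rn6 with STAR 2.5.2b and counted per gene with featureCounts 1.6.3 (Ensembl release 95, mapping quality of at least 10, strand not used). The authors deposited these counts as raw read pairs per gene with the exonic length in bases, and the per-sample counts were used here. Deposited tables of the whole series, which hold fewer of these genes, were not used. Depth was 11094002 to 21869773 counts per sample, which sets the precision of low genes. The 3-count limit covers counting error only. Each SE of a log2 value is its size divided by the square root of its F, so it includes the spread between samples.

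FPKM and CPM were computed here from the counts, with library sizes scaled by the upper quartile. Tests used edgeR 4.0.16 (quasi-likelihood F test, upper-quartile normalization, filterByExpr) in R 4.3.3 over all genes that passed the filter, with Benjamini-Hochberg adjustment, and were tested on simulated data. The simulated counts had a smaller spread than the NAc, DG or SVZ samples and no library set apart by markers. That check therefore does not show how the tests behave at the spread of these data. Each region's METH and Sal samples were fitted alone, the regions within each treatment in 1 fit, and the differences among regions, the shared METH difference and its variation among regions in 1 fit of 8 groups. Of the 43 members 37 to 42 were tested in a comparison, and Sfrp5 in none. The labels' samples were taken as replicates.

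The members and lists were chosen with earlier results of these data known. Any member may be named. Values in every sample are given for members called among regions and for 1 region in Sal samples, for the 3 of lowest p in each METH comparison among those with p under 0.05, and for Axin2 and Ctnnb1. Wnt2, Wnt2b, Wnt3, Wnt7b, Wnt9b and Fzd6 and other members described by library were chosen after their values were seen. Alternatives were TMM normalization, DESeq2 1.42.0, no filter or a filter of 1 CPM, a replicate block, RUVr factors, 1 fit of all samples, pooled regions and leaving out each replicate. Sequencing run, as taken from the header names, was a covariate for METH against Sal in the NAc and CA alone. For METH against Sal in the SVZ, METH libraries of the same header number were also summed, which was not done in the fits across regions. Leaving out libraries by their thalamic, choroid plexus or striatal markers, or DG libraries 1 and 2 in the fits across regions, was chosen after seeing the data.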

Additional observations from a re-analysis of the deposited data

Results flagged for a closer look

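In 11 of the 112 groups of 4 samples checked for 14 members, a single library stood far from the other 3, by a gap that takes over 0.829 of the range of the group. That limit gives about 1 in 20 such groups for normally distributed values, while FPKM was used here without a transformation. The members were also chosen with earlier results known, so the count of 11 cannot be set against chance. In 10 of the 11 the library was the highest. Dkk3 in CA METH 1 stood at 54.7 FPKM against 32.1 to 33.7 in the other CA METH samples. Frzb in DG METH 3 was the low case, at 2.49 FPKM against 11.3 to 12.0, and this library was also the lowest of its group for the granule marker C1ql2.

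Wnt4 was apart in NAc Sal 4 at 1.59 FPKM against 0.672 to 0.794, in DG Sal 1 at 8.65 against 1.26 to 2.40, and in SVZ Sal 1 at 6.67 against 0.795 to 1.5. Wnt7b was apart in DG Sal 1 at 21.5 FPKM against 5.99 to 7.06, and in SVZ METH 1 at 8.97 against 4.87 to 5.51. Fzd5 was apart in DG Sal 3, which held striatal markers, at 2.38 FPKM against 0.969 to 1.16. Fzd7 was apart in DG Sal 4, which held choroid plexus markers, at 3.14 FPKM against 0.742 to 0.850. Wnt10a was apart in DG Sal 2 at 5.45 FPKM against 1.43 to 1.76, and Axin2 in NAc Sal 3 at 9.53 against 7.09 to 7.22.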

How the results depend on the processing

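No METH comparison called a member under any alternative, and the counts that follow are of members with an unadjusted p under 0.05. In the NAc the count of 2 became 4 with no filter, 1 with a filter of 1 CPM, 1 with the replicate block and 6 with RUVr factors. In the DG 7 became 11 with RUVr and 4 without replicates 1 and 2. In the CA 4 became 2 with the replicate block, 1 with 1 fit of all samples, 8 with RUVr and 1 with sequencing run as a covariate. In the SVZ 0 became 1 with DESeq2, 5 with 1 fit of all samples, 8 with RUVr and 6 without the thalamic libraries. The shared count of 4 became 2 without the choroid plexus libraries and 2 without the striatal ones. The count of 2 for differing effects became 1 with the replicate block, 4 without DG libraries 1 and 2, 4 without the thalamic libraries and 6 without the choroid plexus libraries.

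The 5 calls of the regions in Sal samples became 3 with TMM, 10 with DESeq2, 2 with no filter, 0 with the replicate block, 0 against 12 pooled samples, 0 without the choroid plexus libraries, 9 without the striatal ones and 8 at an adjusted p under 0.05. The 16 calls in METH samples became 25 with DESeq2, 8 with the replicate block, 2 against 12 pooled samples, 7 without DG libraries 1 and 2 and 7 without the thalamic libraries. The 2 calls left against pooled samples were those of Wnt3 and Wnt9b in the SVZ. The 18 calls over all samples were 0 in the 16 Sal samples alone and 10 in the 16 METH samples alone. Leaving out each replicate gave 1 to 4 in the NAc, 4 to 7 in the DG, 1 to 6 in the CA and 0 to 8 in the SVZ for METH, 2 to 8 for the shared difference, 0 to 7 for differing effects, 0 to 9 for regions in Sal samples, 7 to 19 in METH samples and 15 to 21 over all samples. The cause was not tested beyond the samples or genes that each alternative leaves out.

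The log2 fold change of Axin2 in the NAc, 0.011, turned to -0.021 with TMM, -0.017 with DESeq2, -0.012 with no filter, -0.004 with 1 fit of all samples, -0.111 with sequencing run as a covariate and to between -0.051 and 0.114 without a replicate. In the SVZ Axin2 turned from -0.102 to 0.041 without the thalamic libraries and ran from -0.189 to 0.057 without a replicate, turning without SVZ Sal 4. There Ctnnb1 turned from -0.047 to 0.054 without the thalamic libraries and ran from -0.134 to 0.083 without a replicate, turning without SVZ Sal 1. Replicate numbers were not taken to pair the samples. The correlation of deviations between samples of the same number ran from -0.779 to 0.417 over 16 pairs of groups. It exceeded 0.1 for all 4 numbers in 1 of them, NAc Sal with CA Sal, at 0.11 to 0.252. These groups have the same header numbers in the same order, and so do NAc METH and CA METH, at -0.108 to 0.244. Pairs of Sal with METH groups could not show shared animals. Header numbers of the SVZ differ from those elsewhere, so the check cannot exclude that samples are paired. Depth limits Wnt3a, Wnt6 and Sfrp5, which had 0 read pairs in some libraries.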
